A study of Homo sapiens with 4 samples.

Results

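Splicing factor genes were taken as the protein-coding genes whose symbol begins with SRSF, HNRNP, LUC7L, SF3A or SF3B, U2AF, PRPF, SNRP, SNRNP or TRA2. Of the 12687 protein-coding genes with a listed NSUN2 peak, 62 met that rule, and they held 431 of the 119374 peaks on protein-coding genes. The name rule used no measured value. NSUN2-bound RNA was sequenced after immunoprecipitation (RIP-seq) from wild-type PANC-1 cells, an established line of human pancreatic ductal adenocarcinoma. The cells were given 30 mM sodium lactate for 24 h or ddH2O, the vehicle, for the same time. Each condition had 1 library from the anti-NSUN2 immunoprecipitation (IP) and 1 input library of lysate RNA taken before the pull-down, so the series has 4 libraries and no value below has a replicate error. The peaks of each IP library were called against its own input, and a second table gave the read density of both IP libraries at 116484 merged peaks.

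NSUN2 is a methyltransferase that places 5-methylcytosine on tRNAs and on a part of the mRNAs and other RNAs of a cell. Splicing is carried out by the spliceosome, which is built from small nuclear ribonucleoproteins with Sm proteins and particle-specific proteins (SNRP and SNRNP genes), the SF3A and SF3B complexes at the branch point and the PRPF proteins. U2AF, LUC7L, serine/arginine-rich (SRSF), TRA2 and hnRNP proteins help to choose which splice sites are used, and many of their own transcripts are alternatively spliced, some with exons that bring an early stop codon.

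RefSeq (GRCh38.p14) lists 87 protein-coding symbols under the rule, of which 61 had a listed peak and 26 had no listed peak in the files used here. HNRNPUL2-BSCL2, a readthrough of adjacent genes, was the member outside those 87. The 26 included SRSF1, SRSF2, SRSF5, SRSF6, SRSF7, SRSF9, HNRNPA1 and U2AF1, and neither the level of these RNAs nor their binding can be read from a list that holds only called peaks. The lactate list held 158 peaks on 54 splicing factor genes and the ddH2O list held 273 peaks on 58. Both lists held 50 of the genes. HNRNPA2B1, HNRNPUL2-BSCL2, PRPF39 and U2AF2 had peaks only in the lactate list. HNRNPH1, SF3A2, SF3B5, SNRPA, SNRPD1, SNRPD3, SNRPN and SRSF3 had peaks only in the ddH2O list. Of the 12687 protein-coding genes with a listed peak, the lactate list held 9781 and the ddH2O list 12133. Genes listed only after ddH2O were thus the more common kind among all genes too. A gene with a peak had a median of 2 peaks after lactate and 3 after ddH2O, the same medians as all protein-coding genes. PRPF40B, whose protein joins the U1 particle, held the most in the ddH2O list, with 20 peaks beside 6 in the lactate list, but most of these lay outside its RefSeq span. In all, 31 of the 431 peaks, on 7 genes, lay outside the RefSeq span of the gene to which the deposited annotation gave them, among them the only peak of HNRNPA2B1 and peaks of SNRPF.

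Over all regions the peaks had like median strength in both sets of genes, but fewer splicing factor peaks were of low confidence. The median fold over input was 3.24 for lactate peaks and 3.03 for those of ddH2O, the same medians as over all protein-coding genes. Introns had these medians in both sets. Within exons the medians were 3.32 and 3.46, against 3.64 and 3.52 for all protein-coding genes. Within 3' UTRs they were 3.38 and 3.29, against 3.64 and 3.51. The 14 ddH2O peaks in 5' UTRs had a median of 3.15, against 3.03. A q-value below 0.05 was reached by 57.0% (95% Wilson interval 49.2 to 64.4%) of the splicing factor peaks in the lactate list, against 44.6% of all protein-coding peaks. In the ddH2O list the shares were 58.6% (52.7 to 64.3%) and 50.9%. Wilson and read-count intervals throughout cover counting error only. An overlap of 1 base or more with the other list was found for 67.1% (59.4 to 73.9%) of the splicing factor peaks called after lactate. Of those called after ddH2O it was found for 37.4% (31.8 to 43.2%). The shares for all protein-coding genes, 58.5% and 29.9%, lay below both intervals. The other genes of splicing had like shares. In 85 of them with a listed peak, q-values below 0.05 were reached by 55.1% and 59.4% of the peaks, and 68.0% and 36.2% overlapped the other list.

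Splicing factor peaks lay less often in introns and more often in exons than protein-coding peaks as a whole. The intron share on splicing factor genes was 39.9% (32.6 to 47.7%) after lactate and 38.1% (32.5 to 44.0%) after ddH2O, against 61.5% and 61.2%. Exons, which here means exons outside the labelled UTRs, held 36.7% (29.6 to 44.5%) and 39.9% (34.3 to 45.8%), against 18.8% and 21%. The other genes of splicing went the same way, with 48.3% and 48.4% of their peaks in introns and 32.6% and 36.2% in exons. Splicing factor genes were also shorter, with a median RefSeq length of 21632 bases against 36775. Among the 3370 other protein-coding genes between the length quartiles of the splicing factor genes (14202 to 37197 bases), the intron shares were 38.4% and 39.5%, within the intervals of the splicing factor genes. Exons held 26.1% and 30.7% in those genes of like length. The 30 splicing factor genes inside the same length range had 34.6% (25 to 45.7%) and 44.9% (36.5 to 53.6%) of their peaks in exons, so that for exons only the ddH2O interval lay wholly above the share of the other genes. The 3' UTR shares of those 30 genes were 20.5% (13.0 to 30.8%) and 12.6% (7.91 to 19.5%), with both intervals below the 32.7% and 26.2% of the other genes of like length. Over all splicing factor genes the 3' UTR shares were 22.8% (16.9 to 29.9%) and 16.8% (12.9 to 21.7%). The shares of all protein-coding peaks, 18.1% and 15.8%, lay within these intervals.

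**Figure D1:**
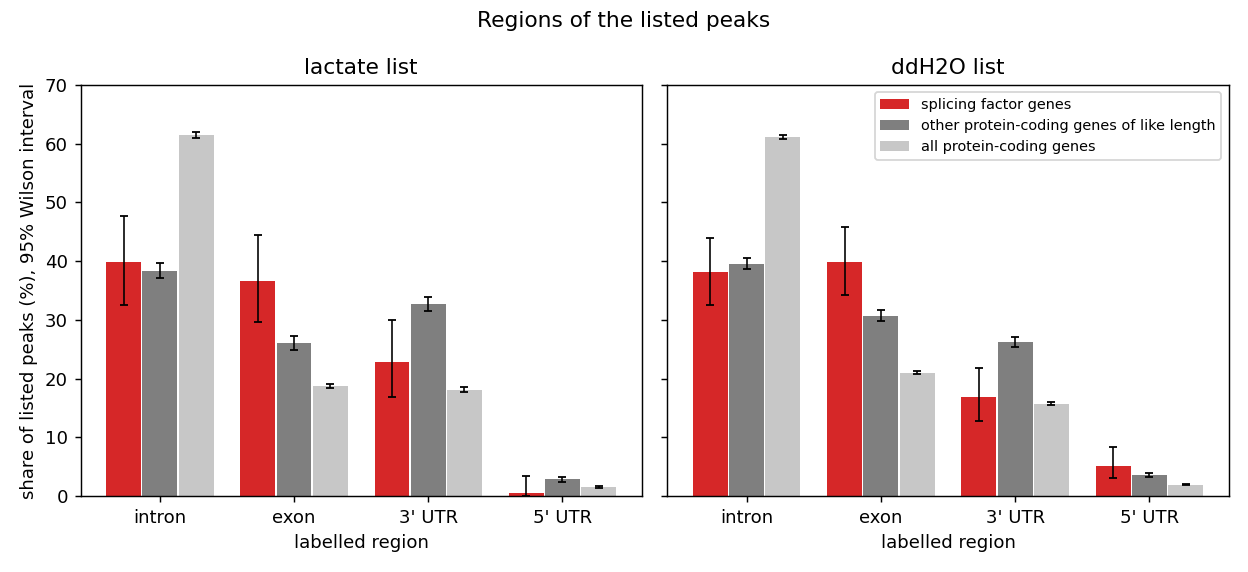
Share of listed peaks (%) in each labelled region, for the lactate list (left) and the ddH2O list (right), with 95% Wilson intervals as error bars. Red bars are the splicing factor genes, dark grey bars other protein-coding genes of like length and light grey bars all protein-coding genes. The red and dark grey bars are of about equal height for introns, and the red bars are the tallest for exons.

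Peaks labelled 3' UTR often lay well inside these genes. Of the 36 splicing factor peaks labelled 3' UTR in the lactate list, 21 (58.3%, 42.2 to 72.9%) lay more than 5 kb before the end of the RefSeq gene, against 30.6% of such peaks on all protein-coding genes. In the ddH2O list it was 31 of 46 (67.4%, 53 to 79.1%) against 37.4%. These peaks came from 9 genes after lactate and 11 after ddH2O. LUC7L2, LUC7L3 and SRSF11 each gave 4 of the lactate peaks, and LUC7L2, SF3B1 and SRSF11 each gave 5 of the ddH2O peaks. In LUC7L3 they lay 9.68 to 14.4 kb and in SRSF11 8.30 to 17.4 kb before the gene end in the lactate list. The label is that of the deposited annotation, which can take a 3' UTR from any transcript of a gene, and the transcripts that carried these reads were not analysed here.

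At the other end of the genes, peaks over the first 50 transcribed bases were listed after ddH2O only. In the lactate list 0 of the 54 splicing factor genes with a peak had one there, for which the Wilson interval reaches 6.64%, and for all protein-coding genes the share was 2.43%. In the ddH2O list 9 of 58 genes (15.5%, 8.38 to 26.9%) had one, against 5.59%. These 9 genes held 10 such peaks. Only 54 of the 62 splicing factor genes had a start in the RefSeq set used. The others stayed in these counts as genes without such a peak. The 5' UTR label was given to 1 of 158 lactate peaks (0.633%, 0.112 to 3.50%, against 1.58% of all protein-coding peaks) and 14 of 273 ddH2O peaks (5.13%, 3.08 to 8.42%, against 1.98%). The share in other genes of like length was 2.87% after lactate and 3.54% after ddH2O, and both lie within the intervals of the splicing factor genes. HNRNP genes held 9 of those 14 ddH2O peaks, 3 of them on HNRNPK, which encodes a protein that binds C-rich RNA. The 5' UTR peak of the lactate list was on TRA2B.

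The 4 of these start peaks with a q-value below 0.05 were on HNRNPC, which encodes a nuclear protein that binds U-rich stretches of unspliced RNA, on SNRNP27, on SNRPB, which encodes the Sm proteins B and B', and on SRSF3, the smallest SR protein. Their covered bases nearest to position 50 are shown, since NSUN2 peaks at a gene start raise the question of what the RNA holds there. The sequences are RefSeq genomic bases on the gene's strand (GRCh38.p14), written as DNA and counted from the annotated start.
HNRNPC, bases 31 to 50, chr14:21269393-21269412, minus strand: gacgaagactgagcggttgt
SNRNP27, bases 21 to 50, chr2:69893976-69894005, plus strand: ggactccaaatgggtcgcagtcgcagccgc
SNRPB, bases 21 to 50, chr20:2470740-2470769, minus strand: gggaaatcggctgtgggagagaggctaggc
SRSF3, bases 21 to 50, chr6:36594382-36594411, plus strand: ggtgagtgagagagttggttggtgttgggc

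Capitals would mark the motif CNGGG, which was searched on both strands, and none of the 4 sequences held it. Over the 35116 RefSeq starts in the table used, 23.1% held CNGGG at bases 21 to 50 on the sense strand and 18.7% held its reverse complement. Of the 70 starts of splicing factor genes, 11 (15.7%) held it on the sense strand. A match or its lack describes these letters alone.

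These 4 start peaks differed in their reads in the merged-peak table. The SNRNP27 start peak, with a fold of 6.81 over input, had 28 lactate and 137 ddH2O reads in its 2000-base window. The SRSF3 start peak had a fold of 5.46 and only 1 lactate and 0 ddH2O reads, and the HNRNPC one had a fold of 4.85 and 1 read in each library. The SNRPB start peak had a fold of 8.25 with 2 lactate and 0 ddH2O reads. For the start peaks of SRSF3, HNRNPC and SNRPB the list and the table therefore did not read the same signal. Among the ddH2O peaks with a q-value below 0.05, a window with under 5 ddH2O reads was found for 10 of 160 splicing factor peaks (6.25%) and for 4.46% of all protein-coding peaks. For all protein-coding genes this share was 0.483% in introns, 11.5% in exons and 19.4% in 5' UTRs. The cause was not tested, and a low window count at a gene start is no measure of binding there.

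The IP libraries differed in how their window reads were spread over the genes. Windows of the merged peaks summed to 9756054 reads after lactate and 9553835 after ddH2O, but outside MT-RNR2 and MALAT1 the sums were 1945000 and 3536821, and the median window held 5 and 7 reads. Ratios of lactate over ddH2O are therefore given on the deposited normalized density, with the ratio of reads scaled by the sums outside MT-RNR2 and MALAT1 beside it for some of the genes. That scaling adds 0.86 to the log2 ratio of the reads, and a scaling by the sums over all windows adds -0.03. At the densest window of all 8969 protein-coding genes with 20 or more reads in both libraries together, the median log2 ratio was -0.16, 0.00 and -0.89 on the 3 scales. Of the keratin genes that mark ductal cells, KRT18 had 2737 and 8085 reads, KRT8 had 1592 and 4024, KRT19 had 92 and 248 and KRT7 had 16 and 37, whereas EPCAM and CDH1 had 4 reads or fewer in each library. No leukocyte marker had more than 5 reads, no endothelial marker had a listed peak, and of the fibroblast markers only COL1A1 had one, with 47 and 50 reads.

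Splicing factor transcripts were well covered at their densest windows. The median densest window held 54.5 lactate and 100 ddH2O reads, against 21 and 35 for all protein-coding genes. LUC7L3 led with 2372 and 3301 reads, followed by SRSF11 with 1090 and 1865 and PRPF38B with 929 and 1727. At the low end, 9 genes (HNRNPA0, HNRNPA2B1, HNRNPH1, HNRNPUL2-BSCL2, PRPF18, PRPF39, SNRPD3, SNRPF and U2AF2) had fewer than 20 reads in both libraries together and were given no ratio. PRPF39 had 12 lactate and 0 ddH2O reads, and U2AF2, the large subunit of the factor that recognizes the polypyrimidine tract, had 4 and 1.

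**Figure D2:**
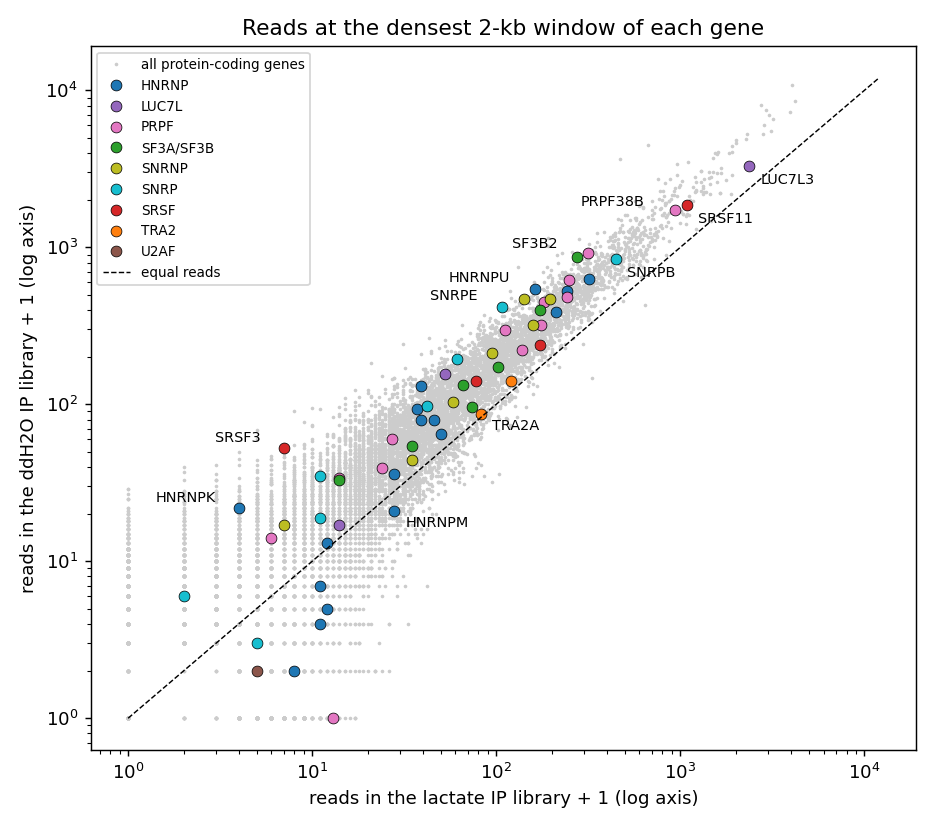
Reads plus 1 in the lactate IP library (x axis) and the ddH2O IP library (y axis), both on log axes, at the densest 2000-base window of each gene. Grey points are all protein-coding genes, coloured points the splicing factor genes by family, and the dashed line marks equal reads. Most coloured points lie within the grey cloud, with LUC7L3 and the TRA2 genes near the line and SRSF3 and HNRNPK far above it.

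How many splicing factor genes differed by more than 2-fold between the conditions depended on the scaling. Of the 53 genes with 20 or more reads at the densest window, 1 was more than 2-fold higher with lactate and 6 were more than 2-fold lower, that is 1.89% and 11.3% of them, where 3.37% and 12.6% of all protein-coding genes were. The higher gene was LUC7L3, and the lower genes were SRSF3, HNRNPK, SNRPA1, HNRNPUL2, SNRNP40 and SNRPE. With reads scaled outside MT-RNR2 and MALAT1, 1 gene (HNRNPM, 1.89%) was higher and 3 (SRSF3, HNRNPK and SNRPE, 5.66%) were lower, where 8.27% and 5.89% of all genes were. With the sums over all windows 0 genes were higher and 28 (52.8%) lower, against 1.33% and 43% of all genes. SRSF3, HNRNPK and SNRPE were thus past 2-fold on all 3 scales, and LUC7L3 and SRSF3 were the 2 genes whose 95% counting interval on the normalized density lay wholly beyond 2-fold.

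Across the 326 merged peaks of these genes, 163 had 20 or more reads. Of those, 5 were more than 2-fold higher and 25 lower with lactate (3.07% and 15.3%), where 7.3% and 18.3% of all protein-coding merged peaks were. Scaled by the sums outside MT-RNR2 and MALAT1 the counts were 13 (7.98%) and 15 (9.2%), against 16.4% and 8.57%. Scaled by the sums over all windows they were 2 (1.23%) and 66 (40.5%), against 3.71% and 38.4%. The split thus moved with the scaling. Windows of neighbouring peaks overlap, which was so for 178 of the 326, and they then share reads.

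**Figure D3:**
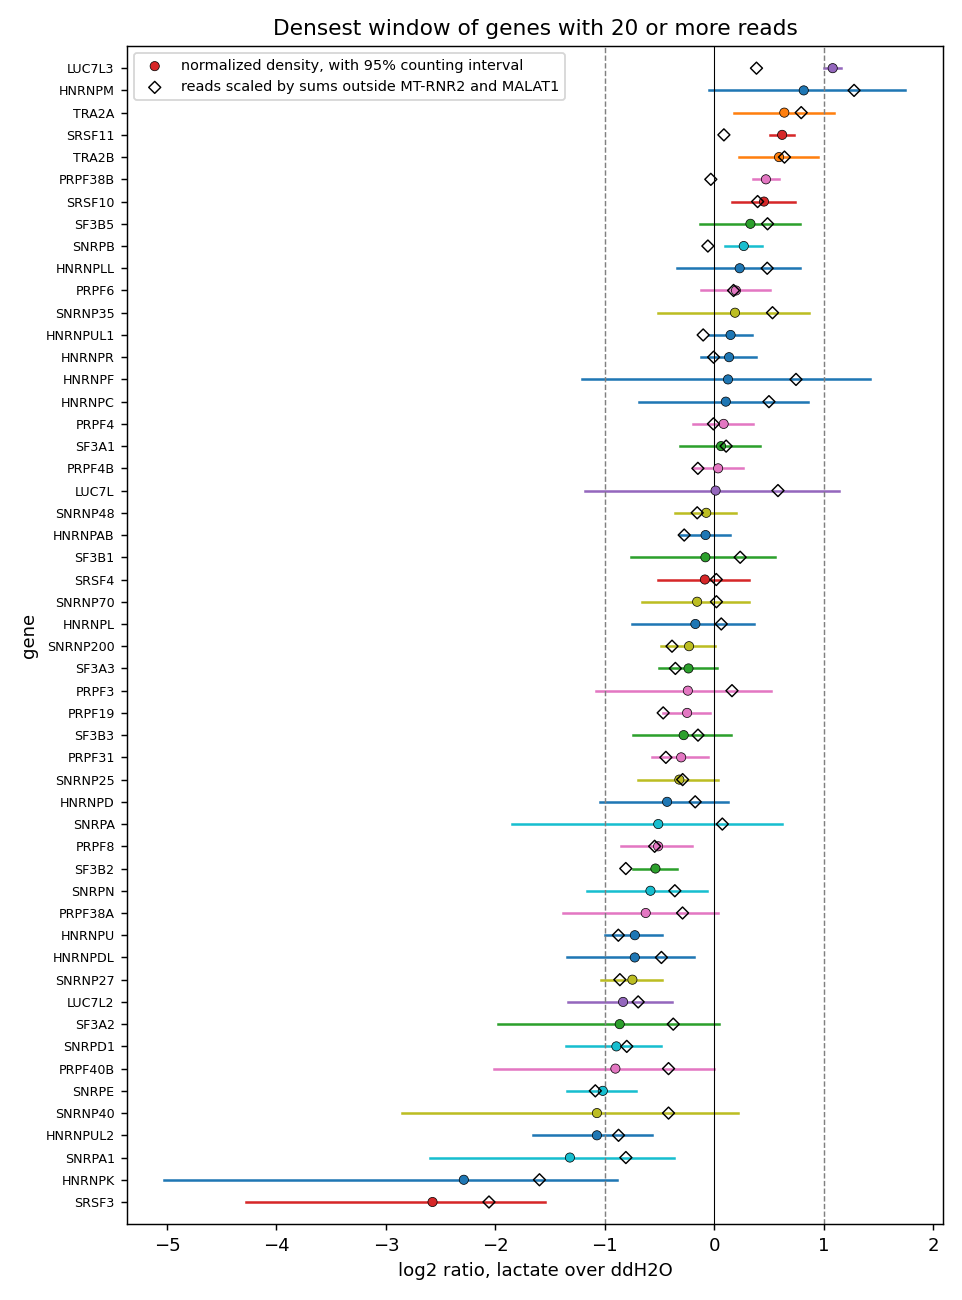
Log2 ratio of lactate over ddH2O (x axis) at the densest window of the splicing factor genes with 20 or more reads, ordered by the ratio, with 1 of the 53 genes not shown. Filled circles, coloured by family as in the plot of reads, give the normalized density with its 95% counting interval, open diamonds the reads scaled by the sums outside MT-RNR2 and MALAT1, and dashed lines 2-fold. LUC7L3 is at the top with 1.08 and a diamond at 0.39, and SRSF3 at the bottom with -2.57 and -2.06.

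The SR and TRA2 proteins bind exonic enhancers and favour the use of the splice sites beside them. SRSF11 had 1090 lactate and 1865 ddH2O reads at its densest window, an exon peak at chr1:70249774-70250651 on the plus strand with folds over input of 5.23 and 5.44. Its log2 ratio was 0.62 (95% counting interval 0.51 to 0.73) on the normalized density and 0.09 with the sums outside MT-RNR2 and MALAT1. Among all protein-coding genes this stood at percentile 89.8 by the density and 56.2 by the reads. The place of SRSF11 thus depended on the line in the mean density that the normalization adds.

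SRSF10, which represses splicing when it is dephosphorylated, had 172 and 238 reads with log2 ratios of 0.45 and 0.40 on those scales. SRSF4 had 77 and 139 reads, with -0.09 and 0.02, at a 3' UTR peak with one of the highest folds over input among the splicing factor peaks after ddH2O, 12.3 against 4.59 in the lactate list. SRSF4 was even along its length, since its 6 windows with 20 or more reads ranged only from -0.18 to 0.23.

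SRSF3 stood apart from the other SR genes. Its densest window, an exon peak at chr6:36596680-36597121, held 6 lactate and 52 ddH2O reads, and the peak was listed only after ddH2O, with a fold of 6.43. The log2 ratio was -2.57 (-4.28 to -1.55), and -2.06 with the sums outside MT-RNR2 and MALAT1. Only 0.925% of all protein-coding genes had a lower ratio.

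TRA2A and TRA2B, which bind GA-rich enhancers, had nearly as many lactate as ddH2O reads at their densest windows. TRA2A had 82 and 86 reads at an intron peak, with a log2 ratio of 0.64 (0.19 to 1.09), although its fold over input was lower with lactate, 1.94 against 2.78. TRA2B had 120 and 140 reads at an exon peak with folds of 3.25 and 3.28, with a ratio of 0.59 (0.23 to 0.95), and its other window, at a 5' UTR peak, had 13 and 29 with -0.74 (-1.86 to 0.19), or -0.24 on the scale outside MT-RNR2 and MALAT1. At the densest windows the ratios were 0.79 and 0.64 on that scale, and with the sums over all windows they turned to -0.10 and -0.25. Both remained high among all genes whatever the scaling, at percentiles 90.1 and 89.1 by the density and 87.6 and 83.7 by the reads. A 5' UTR window of TRA2A with 17 and 7 reads was past 2-fold, at 1.4 (0.17 to 3.02), while windows nearer the start had 19 and 30 and 18 and 29 reads.

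The LUC7L proteins, relatives of the yeast U1 particle protein Luc7, act in 5' splice site choice, and their transcripts covered a wide range. LUC7L3 had its densest window at a 3' UTR peak, chr17:50744509-50744980 on the plus strand, with 2372 and 3301 reads and folds over input of 2.15 and 2.04. Its log2 ratio was 1.08 (1.01 to 1.16) on the normalized density, 0.39 scaled outside MT-RNR2 and MALAT1, and it turned to -0.51 with the sums over all windows. The normalization line alone added 1.56 to the log2 ratio of the reads at this density. The percentile among all genes was 97.3 by the density and 73.9 by the reads.

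The reads of LUC7L3 were gathered in 5 windows between 22.2 and 27 kb from the start of a gene of 36617 bases. They held 452, 1633, 2372, 1999 and 799 lactate reads and 597, 1818, 3301, 3346 and 1540 ddH2O reads, in order along the gene. The log2 ratios were 0.75, 1.29, 1.08, 0.80 and 0.39 on the normalized density, and 0.46, 0.71, 0.39, 0.12 and -0.08 with the sums outside MT-RNR2 and MALAT1. On both scales the ratio was highest at the second of these windows, an exon peak, and lowest at the last. The folds over input of that exon peak were 2.60 with lactate and 1.27 with ddH2O, and those of the last were 3.32 and 5.89. The windows overlap in part and share reads.

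LUC7L2 had 52 and 155 reads, with a log2 ratio of -0.83 (-1.33 to -0.39), and LUC7L had 13 and 16 reads with 0.01 (-1.18 to 1.14), or 0.58 on the scale outside MT-RNR2 and MALAT1. LUC7L2 lies inside the readthrough FMC1-LUC7L2, with which it shares its reads. On the normalized density the counting intervals of LUC7L3 and LUC7L2 lay on opposite sides of 0, and with the sums over all windows both ratios were below 0, at -0.51 and -1.59.

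**Figure D4:**
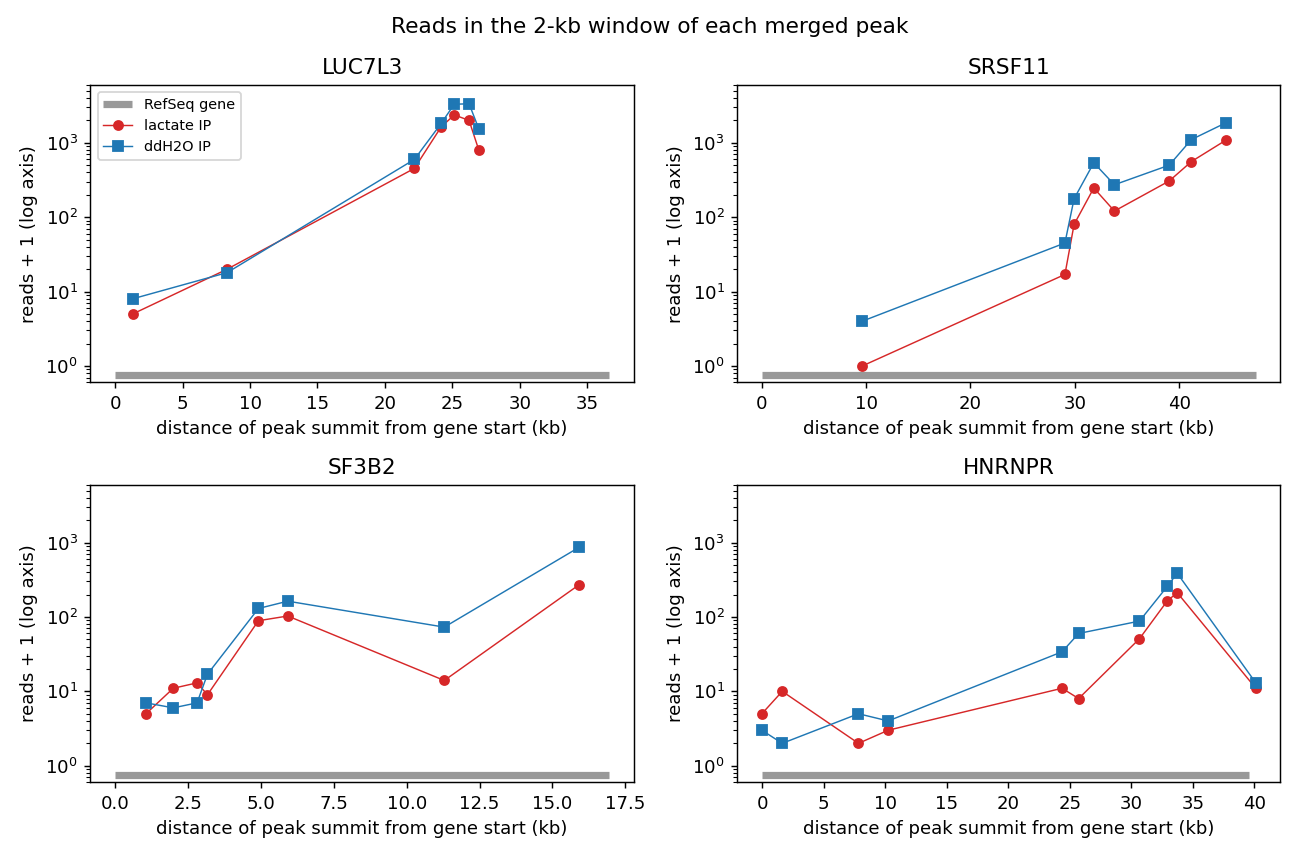
Reads plus 1 (log axis) in the lactate IP (red circles) and ddH2O IP (blue squares) libraries in the 2000-base window of each merged peak of LUC7L3, SRSF11, SF3B2 and HNRNPR, against the distance of the peak summit from the gene start (kb). The grey bar is the RefSeq gene. In LUC7L3 both libraries peak between 22.2 and 27 kb, and in SF3B2 and HNRNPR they part most at windows with 13 and 72 and with 7 and 59 reads.

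The hnRNP proteins coat nascent RNA and often hold back the use of a site. The 13 HNRNP genes with 20 or more reads had a median log2 ratio of -0.08 and ranged from -2.29 to 0.82. HNRNPUL1 had the most reads, 320 and 625, with a ratio of 0.15 (-0.05 to 0.34), and HNRNPAB had 240 and 529, with -0.08 (-0.31 to 0.14). Both intervals include 0, but on the scale outside MT-RNR2 and MALAT1 HNRNPUL1 turned to -0.10 (-0.30 to 0.094) and HNRNPAB was at -0.27 (-0.50 to -0.055), which leaves out 0.

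HNRNPK had 3 and 21 reads at a 5' UTR peak, with -2.29 (-5.02 to -0.89), or -1.60 on the scale outside MT-RNR2 and MALAT1. HNRNPUL2 had 38 and 129 reads with -1.07 (-1.66 to -0.57), or -0.87 on the scale outside MT-RNR2 and MALAT1, at a 3' UTR peak listed only after ddH2O with a fold of 7.31. HNRNPM was highest with 27 and 20 reads and a ratio of 0.82 (-0.05 to 1.75), or 1.28 with the sums outside MT-RNR2 and MALAT1, at an intron peak. Its interval on the normalized density includes 0.

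HNRNPU, whose protein is a nuclear scaffold that binds RNA, had one of the strongest peaks of the set. An exon peak 0.55 kb from the gene start had folds over input of 20.3 with lactate and 11.7 with ddH2O, with 50 and 80 reads and a log2 density ratio of -0.03 (-0.58 to 0.49), which turned to 0.20 on the scale outside MT-RNR2 and MALAT1. Its densest window, 8.21 kb from the start, went further apart, with 162 and 543 reads, a ratio of -0.73 (-0.99 to -0.48), or -0.88 on that scale, and folds of 2.04 and 6.73. HNRNPR, chosen after its values were seen, had 211 and 386 reads at its densest window and 7 and 59 at an exon window upstream, where the ratio was -2.53 (-4.07 to -1.56) although the folds over input were 2.94 and 2.77.

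The SF3A and SF3B complexes are parts of the U2 particle and hold it on the branch point. Their 7 genes had a median log2 ratio of -0.23, from -0.86 to 0.33. SF3B2 held the highest fold over input of the splicing factor peaks in both lists, 24.0 with lactate and 25.8 with ddH2O, at an exon peak with 102 and 162 reads and a ratio of 0.15 (-0.23 to 0.51). Its densest window had 272 and 868 reads with -0.54 (-0.74 to -0.34), and another exon window had 13 and 72 with -1.91 (-2.98 to -1.14). SF3A3 had 171 and 399 reads with -0.23 (-0.51 to 0.02), or -0.35 (-0.63 to -0.098) on the scale outside MT-RNR2 and MALAT1, where the interval leaves out 0. SF3B1, the gene of the branch-point protein most often mutated in blood and other cancers and named after its values were seen, had 34 and 53 reads at its densest window and 6 and 44 at another 3' UTR window, with -0.08 and -2.36. Outside MT-RNR2 and MALAT1 the first of these turned to 0.24 and the other was -1.82.

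The PRPF genes encode proteins of several spliceosomal particles. PRPF38B had 929 and 1727 reads at its only merged peak, in an exon, with a log2 ratio of 0.47 (0.36 to 0.59) on the normalized density and -0.03 with the sums outside MT-RNR2 and MALAT1. Of the 50 PRPF merged peaks with 20 or more reads, 11 (22%) were past 2-fold lower, against 18.3% of all protein-coding merged peaks, and 0 were higher, against 7.3%. On the scale outside MT-RNR2 and MALAT1, 7 were lower and 2 higher, against 8.57% and 16.4%. Of the 11, 4 were intron windows of PRPF40B with 4 to 8 lactate and 22 to 27 ddH2O reads. Most listed peaks of PRPF40B lay outside its RefSeq span, as did its densest window, and peaks given to it also lay on FAM186B. The reads of such windows cannot be given to PRPF40B.

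The SNRP genes, which encode Sm proteins and the A proteins of the U1 and U2 particles, had the lowest median of the families. Of the 6 SNRP genes with 20 or more reads, 1 lay above the median of all protein-coding genes, and their median log2 ratio was -0.74, or -0.58 with the sums outside MT-RNR2 and MALAT1. SNRPB was the exception, with 447 and 847 reads and 0.27 (0.10 to 0.44), or -0.06 on the second scale. SNRPE, the Sm protein E, had 107 and 416 reads with -1.02 (-1.35 to -0.72), or -1.09, and folds over input of 1.47 and 2.19. SNRPA1, the U2 protein A', had 10 and 34 reads with -1.32 (-2.60 to -0.36), or -0.81 (-2.09 to 0.15) on the second scale. Its other intron peak, with 8 and 34 reads, had a fold of 12.1 and was listed only after ddH2O. For 6 genes this is a description of the list and not a test of the family.

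The particle-specific SNRNP genes had a median of -0.23 and lay between -1.07 and 0.19. SNRNP200, the helicase that unwinds U4 from U6, had 196 and 467 reads with -0.23 (-0.48 to 0.01), or -0.39 (-0.64 to -0.15) on the scale outside MT-RNR2 and MALAT1. SNRNP27, a protein of the tri-snRNP, had 140 and 465 with -0.75 (-1.04 to -0.48). SNRNP40 of the U5 particle had 6 and 16 reads with -1.07 (-2.85 to 0.22), or -0.42 on the scale outside MT-RNR2 and MALAT1, and its interval includes 0. SNRNP70, the U1 70K protein, had 57 and 103 reads at its densest window with -0.16 (-0.66 to 0.31), which turned to 0.02 on that scale. An intron window of SNRNP70 was the highest of all splicing factor windows with 20 or more reads, with 28 lactate and 7 ddH2O reads, a ratio of 2.15 (1.06 to 3.73) and a lactate peak with a fold of 11, and no peak was listed there after ddH2O.

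Ratios also varied along single genes. In the 26 genes with 3 or more windows of 20 or more reads, the log2 ratio of the highest and the lowest window of a gene differed by a median of 1.44, from 0.08 in HNRNPLL to 2.84 in SF3B1. By region, the 52 intron windows had a median log2 ratio of 0.10 and the 70 exon windows -0.25, against -0.03 and -0.39 for all protein-coding genes. The 37 windows in 3' UTRs had a median of -0.16, against -0.22. On the scale outside MT-RNR2 and MALAT1 the medians were 0.56 in introns against 0.45, -0.13 in exons against -0.14 and -0.083 in 3' UTRs against -0.019, so that the 3' UTR windows then stood below those of all genes.

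The folds over input gave a comparison that does not use the scaling between the IP libraries. It was made after the ratios were seen, at the 102 merged peaks with a peak in both lists, and it leaves out every peak listed in 1 condition. The median log2 ratio of the lactate fold over the ddH2O fold was -0.17, against -0.19 for 23104 merged peaks of all protein-coding genes. Of the 102 peaks, 65 (63.7%, 54.1 to 72.4%) had a lower fold with lactate, against 59.4%. A fold more than 2 times higher with lactate was found at 3 of them (2.94%, on LUC7L3, HNRNPF and PRPF40B), against 7.57% of those of all protein-coding genes. A fold more than 2 times lower was found at 11 (10.8%), against 17.4%, among them windows of HNRNPU, SRSF4 and PRPF19.

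Of the 94 other genes of splicing considered, whose names do not meet the rule, 85 had a listed peak and 77 had 20 or more reads at the densest window. On the normalized density 0 of them were more than 2-fold higher and 12 (15.6%) lower with lactate, against 3.37% and 12.6% of all protein-coding genes. On the scale outside MT-RNR2 and MALAT1 it was 1 (1.3%) and 10 (13%), against 8.27% and 5.89%. Their median log2 ratio was -0.43, or -0.38, against -0.23, or -0.15, in the splicing factor genes.

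Some peaks cannot be given to 1 gene. Of the 431 peaks, 55 on 14 genes also lay on another RefSeq gene, among them peaks of HNRNPAB, HNRNPK, HNRNPUL2, LUC7L2, PRPF40B, SNRPB and SRSF4, and the library kit does not mark the strand of the RNA. The lists and table cannot tell more binding per transcript from more transcript, except through the folds over input.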

How the data were processed

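The authors deposited 1 peak list per condition, with the fold (ratio) of IP over input, the −log10 p-value and the q-value from the peak caller, and the Ensembl gene, biotype and region of each peak. Each IP library had its own call. Per the submitters' processing notes, fastp 0.20.1, HISAT2 2.1.0, MACS2 2.2.7.1, bedtools 2.29.2, HOMER 4.11.1 and DiffBind were used, with GRCh38. The authors also deposited a MAnorm table that gives signal as a normalized read density, 1 column per IP library, at merged peaks. Its M value, A value and P value compare the conditions and were not used. Lists and table were read as deposited, and no per-sample column was left unused (0).

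The reads of each 2000-base window were computed back from both densities as 2 times the density minus 1. Before that, the line that the normalization had added to their log2 ratio was taken off. The line is in the mean log2 density (slope 0.17, intercept -0.20). Of all windows, 99.998% came out whole in both libraries, within 0.05 reads. On this basis ratios were taken between 2 libraries, with exact (Clopper-Pearson) 95% counting intervals, and no test between conditions was possible. A merged peak took every protein-coding gene whose listed peak it overlapped by 1 base. Called higher or lower means over 2-fold, with at least 20 reads in the windows of both libraries together. Depth of the input libraries is unknown. Coordinates count from 1.

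Members and lists were chosen with earlier results of these data known. Named genes are the 2 with the most reads per family, the 5 highest and 5 lowest ratios, the 3 genes with the highest folds in each list, and all SRSF, TRA2 and LUC7L genes. 1 gene under this rule is not reported here. HNRNPR, SF3B1 and single windows were named after their values were seen. Genes between the length quartiles and the ratio of folds were added after seeing the data. Scripts ran in Python 3.11.15 (scipy 1.17.1, pandas 2.3.3, numpy 2.4.6, matplotlib 3.10.9). The computing back of reads and the counting intervals were tested on simulated data, and the calls of higher or lower were not.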

Additional observations from a re-analysis of the deposited data

How the results depend on the processing

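With 1 library per group, every value rests on a pair of libraries. No paired analysis was possible because the groups share only replicate number 1 and hold 1 library each, which leaves a single pair. Of the alternative values, 37 stayed close to the reported one (counts within 1.5 times, shares within the Wilson interval, medians within the interval of the median), 45 moved further and 1 turned its sign. Limited to folds over input of 4 or more, the lists kept 47 and 96 splicing factor peaks, and limited to q-values below 0.05 they kept 90 and 160 (lactate first). At a fold of at least 4 the ddH2O peaks were 31.2% intron and 46.9% exon, the lactate 5' UTR share was 0%, and the lists overlapped by 57.4% and 28.1%. At a q-value below 0.05 introns held 20% and 24.4%, exons 45.6% and 50% and, in the lactate list, 3' UTRs 33.3%. By bases covered, the ddH2O list was 31.8% intron and 47.0% exon. Among genes between the length quartiles 12.6% of ddH2O peaks lay in 3' UTRs. An overlap of 50% of both peaks gave 53.2% and 30.8%. The strongest peak of each gene had a median fold of 4.25 and 5.25.

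For merged peaks, the counts higher and lower were 2 and 66 with the sums over all windows (median log2 -0.83), 13 and 15 with the sums outside MT-RNR2 and MALAT1 (median 0.064, against -0.16 as reported), and 3 and 11 by the folds over input. At 50 or more reads they were 2 and 10 of 95 (2.11% and 10.5%, against 3.38% and 11% of all protein-coding merged peaks), with no minimum 30 and 80 of 326 (9.2% and 24.5%, against 13.6% and 36.4%) and at a fold over 1.5 they were 17 and 45 of 163 (10.4% and 27.6%, against 15.7% and 32.3%). In windows that do not overlap they were 3 and 15 of 112 (2.68% and 13.4%, against 7.31% and 18.2%), in peaks of both lists 2 and 5 of 87 (2.3% and 5.75%, against 7.18% and 8.92%), and in exons and UTRs 3 and 17 of 111 (2.7% and 15.3%, against 2.27% and 19.3%). At the densest window, the sums over all windows gave 0 genes higher and 28 lower (median -1.04). The sums outside MT-RNR2 and MALAT1 gave 3 genes lower (5.66%, against 5.89% of all protein-coding genes), against 6 as reported. A minimum of 50 reads (median log2 -0.16) and the sum over windows (median -0.20) also gave 3. For these last settings no share of all protein-coding genes was computed, so that no change in the splicing factor genes can be read from the count. Which scaling is nearer to the binding was not tested.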
